A study of Homo sapiens with 4 samples.

Results

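The mRNAs described here encode 9 proteins of the cytoskeleton, namely the actins ACTB and ACTG1, the tubulins TUBA1A, TUBA1B, TUBA1C and TUBB4B, and the actin-binding proteins CFL1, PFN1 and TMSB10. They were chosen by gene, with earlier results of these data known, and each was taken as a stranded window of the hg19 genome. All intervals sharing at least 1 base with a window on its strand were counted. The study mapped where LARP4, a member of the La-related family, sits on RNA, by eCLIP in the human embryonic kidney line HEK293. In eCLIP, proteins are fixed to bound RNA with ultraviolet light, the protein of interest is pulled down with an antibody, and the RNA fragments that come with it are sequenced. The study had 2 LARP4 eCLIP replicates, recovered with an antibody to LARP4, and 2 size-matched inputs without an antibody. All came from HEK293 cells irradiated at 254 nm with 400 mJ/cm2. The names of the deposited lists mark them WT (wild type), and the labels name no change of genotype. The authors deposited a list of clusters for each eCLIP replicate and 1 series-wide list of regions, in which every value is relative to input.

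The windows held 169 of the 171755 clusters of replicate 1, 154 of the 191899 clusters of replicate 2, and 58 of the 7153 series-wide regions. Positions are hg19 and counted from 1. Exons, introns and untranslated regions were not analysed here. No cluster of either replicate lay on the same strand within 2000 bases outside any of the 9 windows. The lists hold no reads and no level of RNA, so the depth behind a cluster is unknown, and the identity of the cells was not checked against markers.

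Actin monomers assemble into filaments that give a cell its shape and let it move, and dimers of alpha and beta tubulin assemble into microtubules. Actin-binding proteins set the balance between monomer and filament. Cofilin cuts and disassembles filaments, profilin delivers monomers to growing ends, and thymosin beta 10 holds monomers apart from filaments. LARP4 is known as a cytoplasmic protein that binds poly(A) and the poly(A)-binding protein and that stabilises mRNAs. The named interest of the study was in nuclear-encoded mRNAs of mitochondrial proteins, a class to which these genes do not belong.

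All 9 mRNAs had clusters far above input in both replicates, and the authors' series-wide list holds regions in every one of them. The actin-binding mRNAs had the highest median log2 fold over all their clusters, 3.70 in replicate 1 and 3.67 in replicate 2. The highest single cluster was in TUBA1A, a tubulin, at 6.64 in replicate 1 and in PFN1 at 5.28 in replicate 2. The tubulin mRNAs had medians of 2.48 and 2.34, and the actin mRNAs 1.95 and 2.40. The medians of the whole lists were 1.28 and 1.30. In 8 of the 9 mRNAs the folds were on the whole higher towards the 3′ edge of the window, although in ACTB they were highest 704 and 680 bases short of it. TMSB10, in which all clusters lay within 164 bases, had no such slope.

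**Figure D1:**
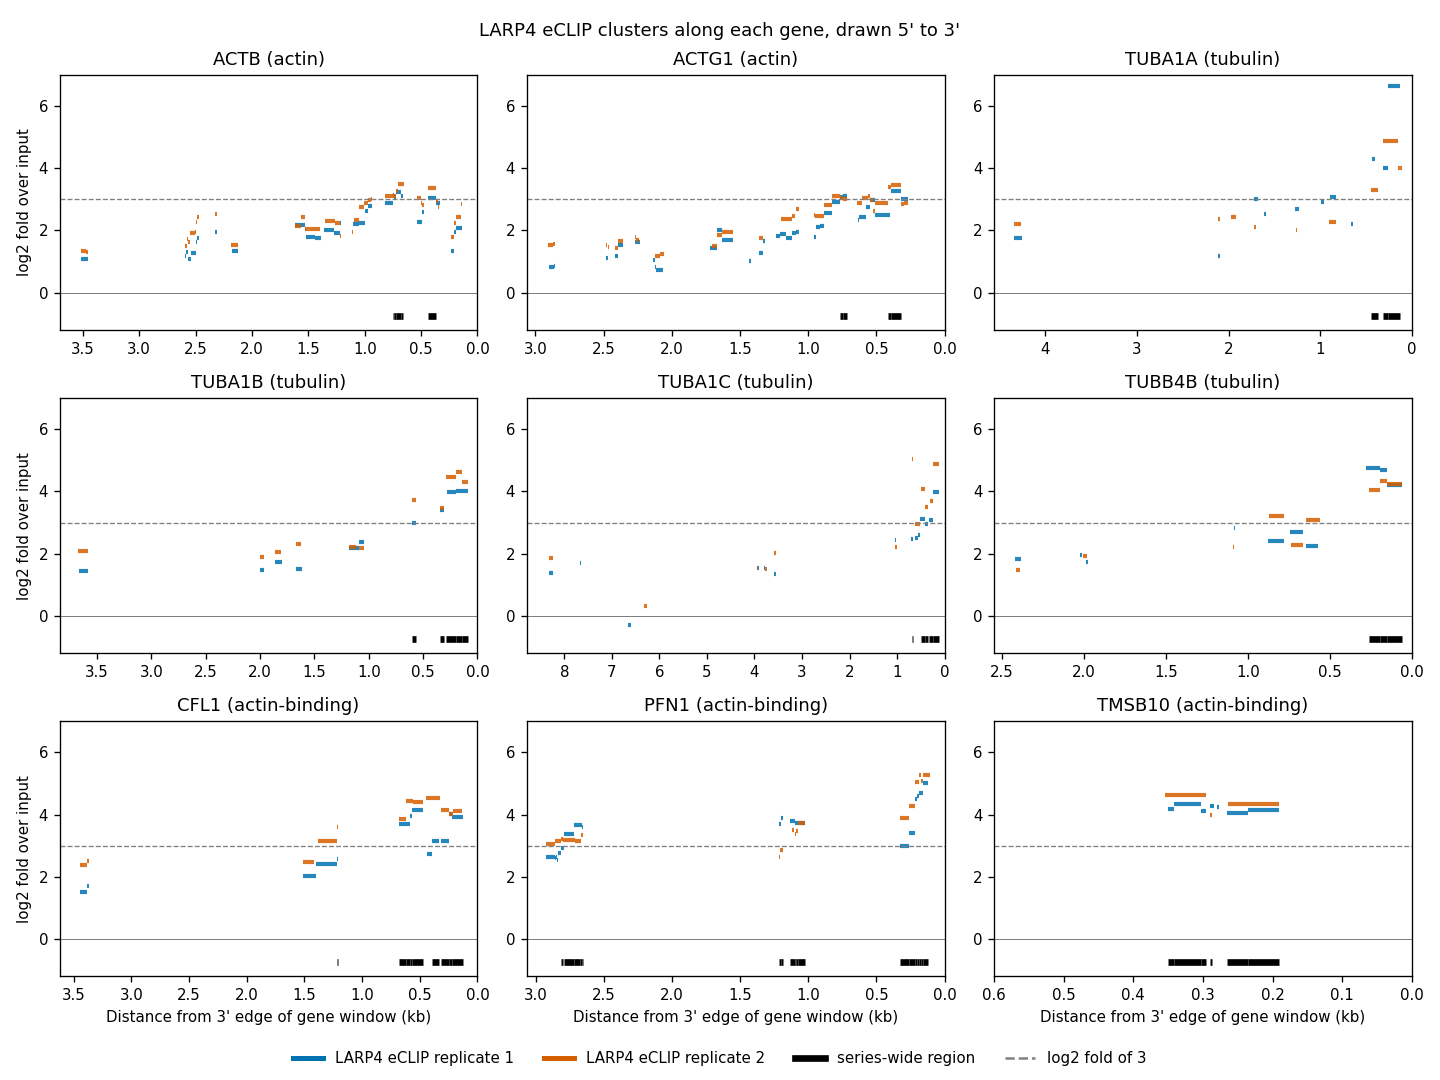
Each panel is 1 gene, drawn 5′ to 3′, with the distance of each cluster from the 3′ edge of the gene window in kb on the x axis and its log2 fold over input on the y axis. Blue and orange bars are clusters of replicates 1 and 2, at their true width, black bars are series-wide regions, and the dashed line is a log2 fold of 3; in every panel but that of TMSB10 the right side is higher than the left.

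A cluster was called enriched when its log2 fold over input was at least 3, which is 8-fold, and its −log10 p was at least 3. The p is the authors' own, for a replicate against input, although which input was set against which replicate is not given. The −log10 of this p is 0 wherever the fold is below input and is capped at 400. In replicate 1, 54 of the 169 clusters were enriched, or 32.0% (95% Wilson interval 25.4 to 39.3), against 5.01% of the whole list. In replicate 2, 61 of 154 were enriched, or 39.6% (32.2 to 47.5), against 5.5% of the whole list. Counted in bases, 36.6% and 50.0% of the covered bases in the windows lay in enriched clusters, against 6.22% and 7.05% in the whole lists. At a log2 fold of at least 4 the counts were 21 and 24, against 1.46% and 1.63% of the whole lists, and at 2 they were 105 and 113, against 11% and 11.3%. At 1 they were 155 and 148, against 14% and 13.7%. Nearly every cluster was above input, 168 of 169 and 154 of 154, against 88.4% and 88.8% of the whole lists. The intervals treat clusters as independent and cover counting error only, although neighbouring clusters of an mRNA share their source. Because the genes were chosen with earlier results known, the intervals do not test the set against the whole lists.

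The windows stood apart from the whole lists in p as well as in fold. With no limit on p, the same 54 and 61 clusters in the windows had a log2 fold of at least 3, or 32.0% and 39.6%. In the whole lists, 6.48% and 7.18% of clusters lay at or above a log2 fold of 3.005. Of the clusters in the windows, 160 of 169 in replicate 1 and 148 of 154 in replicate 2 had a −log10 p of at least 3, or 94.7% and 96.1%, against 14.2% and 13.8% of the whole lists. Among clusters past that p alone, the enriched share was 33.8% and 41.2% in the windows, against 35.4% and 39.9% in the whole lists. With the p limit raised to a −log10 p of 20, it was 39.7% of 121 and 46.2% of 117 in the windows, against 68.6% of 3805 and 77.5% of 4049. Past the first limit on p the share was thus lower than in the whole list in replicate 1 and higher in replicate 2, and past the stricter limit it was lower in both. A p of this kind depends on read number as well as on fold, so a limit on p also selects on fold. The shares past it therefore do not show whether the windows differ more in p or in fold. The part of RNA abundance in these shares was not tested.

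The 3 families had different shares, which were not tested. Over all clusters, 11.7% and 18.4% were enriched in the actin mRNAs, 29.8% and 43.2% in the tubulin mRNAs and 68.9% and 82.4% in the actin-binding mRNAs, each above the 5.01% and 5.5% of the whole lists. Past a −log10 p of 3 the actin and actin-binding shares were the same, since all their clusters passed it, and the tubulin mRNAs had 36.8% and 50.0%. Against 35.4% and 39.9% of the whole lists, the actins lay below in both replicates and the actin-binding mRNAs far above. The tubulins lay above in both, though by little in replicate 1. At a −log10 p of at least 20 the actin mRNAs had 9 enriched of 66 clusters in replicate 1 and 14 of 70 in replicate 2, or 13.6% and 20.0%. The actin-binding mRNAs had 31 of 41 and 27 of 33, or 75.6% and 81.8%. The tubulin mRNAs had 8 of 14 and 13 of 14, or 57.1% and 92.9%, too few clusters for a close comparison. Their median log2 folds past this p were 3.54 and 4.16, against 3.71 and 3.74 for the actin-binding mRNAs. The order of these families by median thus turned in replicate 2. At this p the actins lay below the whole lists in both replicates, and the actin-binding mRNAs lay above them by a few percentage points. The tubulins lay below the whole list in replicate 1 and above it in replicate 2.

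**Figure D2:**
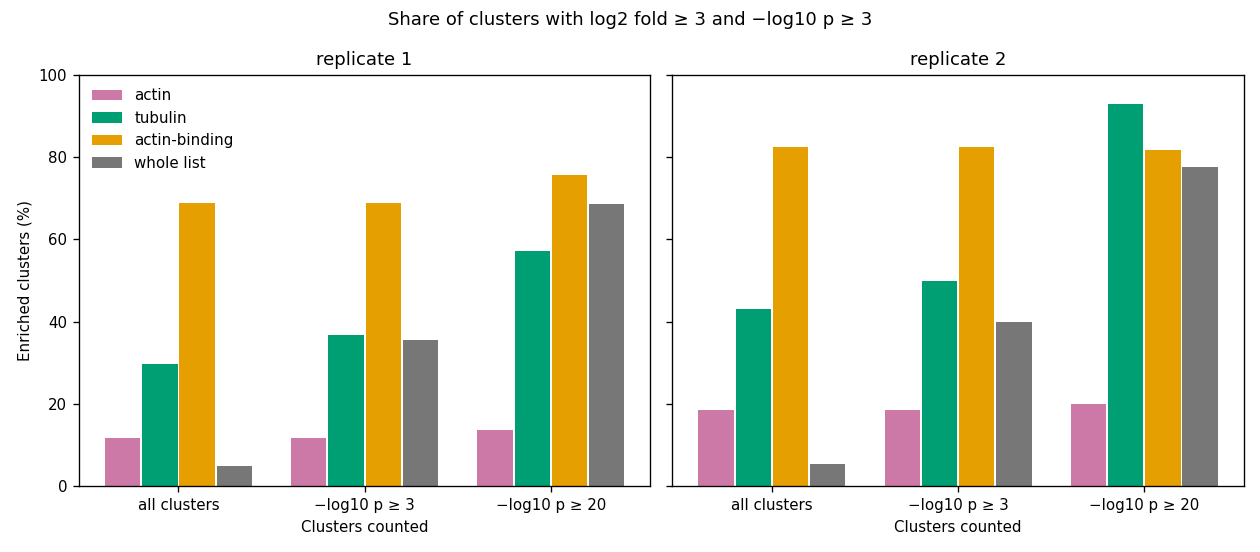
Bars give the percent of clusters that were enriched, with a log2 fold and a −log10 p of at least 3, for the actin, tubulin and actin-binding windows and for the whole list, in replicate 1 (left panel) and replicate 2 (right panel). The x axis gives the clusters counted, all of them or those past a −log10 p of 3 or 20; the grey bar of the whole list stands at 5.01% and 5.5% over all clusters and at 68.6% and 77.5% at the strictest p, and no error bars are drawn.

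ACTB, the cytoplasmic beta actin, was covered by 39 clusters in replicate 1 and 41 in replicate 2, the most of any gene here. Its window was chromosome 7, 5566700 to 5570300, minus strand. Every one of these clusters was above input, with log2 folds from 1.01 to 3.24 in replicate 1 and from 1.32 to 3.49 in replicate 2. The lowest −log10 p was 13.9 and 19.5, so no cluster failed on p and the limit on fold alone set the 5 and 7 that were enriched.

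The enriched ACTB clusters did not lie at the very 3′ end. The 5 series-wide regions formed 2 blocks, at 5567072 to 5567138 and at 5567358 to 5567446. The region whose lower replicate was highest was 5567382 to 5567425, with log2 folds of 3.24 and 3.49, a mean of 3.36 ± 0.18 (SD, n = 2), which was 9.43-fold where it was lower. The replicate 2 value came from a cluster at 5567355 to 5567405, which covered 24 of its 44 bases and also stood behind the neighbouring region. The replicate 2 cluster over the other bases, 5567406 to 5567425, had 3.28. Nearer the 3′ edge the folds were lower again. The last cluster had a log2 fold of 2.08 in replicate 1 (5566837 to 5566888) and 2.85 in replicate 2 (5566838 to 5566842), and the cluster at 5566904 to 5566937 in replicate 1 had 1.35. The 5′-most cluster, which began at 5570157 in replicate 1 and 5570173 in replicate 2, had 1.07 and 1.33, the low end of the gene in both.

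ACTG1, the cytoplasmic gamma actin, resembled ACTB in number, fold and position. Its window was chromosome 17, 79476900 to 79480000, minus strand, with 38 clusters in replicate 1 and 35 in replicate 2. Log2 folds ran from 0.72 to 3.28 and from 1.19 to 3.47, with 4 and 7 enriched clusters. Its 4 series-wide regions also formed 2 blocks, at 79477223 to 79477312 and at 79477615 to 79477670. The highest was 79477223 to 79477294, with 3.28 and 3.47, a mean of 3.38 ± 0.14 (SD, n = 2). At the 5′-most cluster the folds were 0.82 and 1.52. Neither actin had a cluster at a log2 fold of 4, in 77 clusters of replicate 1 and 76 of replicate 2, against 1.46% and 1.63% of the whole lists. A count of 0 allows a share of up to 3.90% and 3.95% here, for counting error only. Clusters of both actins reached the cap on −log10 p, 8 in replicate 1 and 9 in replicate 2, so the p did not hold them back.

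The proteins of the actins are nearly identical, and so are those of the alpha tubulins. Reads from coding sequence that such genes share may be placed at either copy or dropped. No source used here states how the authors treated them, so values inside coding sequence are uncertain between these copies.

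Among the tubulins, TUBA1A had the highest fold of all 9 genes in replicate 1, while in replicate 2 PFN1 with 5.28 and TUBA1C with 5.05 were higher. The SD of a single replicate over the overlapping TUBA1A clusters, 0.72, was the largest of the 9. Its window was chromosome 12, 49578500 to 49582900, minus strand, with 11 clusters in replicate 1 and 9 in replicate 2. The region at 49578628 to 49578759 had log2 folds of 6.64 and 4.88, or 99.5-fold and 29.4-fold, a mean of 5.76 ± 1.24 (SD, n = 2). In replicate 1, 0.0111% of the whole list had a fold as high, and in replicate 2, 0.418%. The replicate 2 cluster behind that value was broader, from 49578651 to 49578817, and it also stood behind the neighbouring region at 49578760 to 49578814, where replicate 1 had 4.02. At 49578628 to 49578759 the −log10 p was 27.6 and 29.5, while the highest PFN1 region was at the cap of 400 in both replicates. Over all TUBA1A clusters the −log10 p values were small next to those of the actins. Their medians were 4.14 and 5.37, against 42.2 and 46.2 for ACTB. The lists hold no reads, so the input depth behind these folds is unknown. At 49580595 to 49580617 replicate 1 had 1.18, while the overlapping replicate 2 cluster had 2.37, and the 5′-most cluster had 1.76 and 2.20.

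TUBA1B, an alpha tubulin encoded beside TUBA1A, had a more even profile. Its window was chromosome 12, 49521500 to 49525400, minus strand, with 10 and 11 clusters. The 3′-most stretch, 49521589 to 49521847, held 4 series-wide regions with replicate values from 3.41 to 4.02 and from 3.48 to 4.64. The regions at 49521589 to 49521646 and 49521647 to 49521697 shared a replicate 1 cluster at 4.02, and had 4.29 and 4.64 in replicate 2. Further 5′, a region at 49522065 to 49522103 had 2.98 and 3.73. All clusters 5′ of that region stayed between 1.46 and 2.39, and the 5′-most, starting at 49525081 in both replicates, had 1.46 and 2.08.

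TUBA1C has the longest window, on the plus strand of chromosome 12 from 49621600 to 49667200, but its clusters covered only the stretch from 49658869 to 49667090. Its 16 and 14 clusters included the only cluster of the set below input, at 49660544 to 49660598 in replicate 1, with a log2 fold of −0.30 and a −log10 p of 0. The lowest in replicate 2 was 0.33, at 49660868 to 49660942. The 5 series-wide regions lay within the last 1000 bases of the window, at 49666509 to 49666530 and from 49666694 to 49667090. The highest by its lower replicate was 49666952 to 49667090, with 3.995 and 4.88, a mean of 4.44 ± 0.62 (SD, n = 2). The region of 22 bases at 49666509 to 49666530 had 2.48 and 5.05, the widest spread of all 58 regions, and was enriched in replicate 2 alone.

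TUBB4B, a beta tubulin, had 10 clusters in each replicate on the plus strand of chromosome 9, window 140135600 to 140138200. Its 3 series-wide regions touched each other and covered 140137938 to 140138141 without a break. The middle region, 140138008 to 140138048, had log2 folds of 4.68 and 4.34, a mean of 4.51 ± 0.24 (SD, n = 2). The last, 140138049 to 140138141, had 4.22 and 4.24, with −log10 p at the cap in both replicates. The 5′-most cluster had 1.84 and 1.47. Replicate 1 had 3 enriched clusters and replicate 2 had 6. The cluster at 140137323 to 140137418, with 2.40 in replicate 1, was split in replicate 2 into 2 clusters with 3.20 and 3.21, and that at 140137558 to 140137627 had 2.26 in replicate 1 and 3.09 in replicate 2.

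CFL1, which encodes cofilin, was enriched in 8 of 15 clusters in replicate 1 and 9 of 13 in replicate 2. Its window was chromosome 11, 65622200 to 65629500, minus strand, and its clusters lay between 65622328 and 65625647. Of its 9 series-wide regions, 8 lay from 65622328 to 65622881. The highest by its lower replicate, 65622674 to 65622765, had log2 folds of 4.15 and 4.40, a mean of 4.28 ± 0.18 (SD, n = 2). A region at 65622534 to 65622590 had 3.16 and 4.55, with a broader cluster in replicate 2. Each of the 15 clusters of replicate 1 had a partner in replicate 2, and replicate 2 was higher in every one, by a median of 0.72. The 5′-most cluster, 65625586 to 65625647 in both replicates, had 1.51 and 2.38.

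PFN1, which encodes profilin, differed from the other genes in having series-wide regions at the 5′ side as well. Its window was chromosome 17, 4848900 to 4852400, minus strand, with 23 clusters in replicate 1 and 18 in replicate 2, of which 16 in each were enriched. Its 18 regions were the most of any gene here and lay in 3 parts of the gene. Near the 3′ edge, 7 regions from 4849019 to 4849225 had folds that declined away from the end. The outermost, 4849019 to 4849056, had 5.02 and 5.28, a mean of 5.15 ± 0.19 (SD, n = 2), and the innermost, 4849159 to 4849225, had 2.998 and 3.90. The value of 2.998 lay just below the limit.

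The middle part of PFN1 held 6 regions from 4849928 to 4850115, with replicate 1 between 3.70 and 3.89 and replicate 2 between 2.86 and 3.74. The 5′ part held 5 regions from 4851558 to 4851718, with 2.92 to 3.68 in replicate 1 and 3.16 to 3.34 in replicate 2. These 5 were the only regions of the 58 on the 5′ side of a window's midpoint. In replicate 1 these folds lay around the highest values of ACTB and ACTG1, which were 3.24 and 3.28. In replicate 2 they lay below the highest values of those genes, which were 3.49 and 3.47. PFN1 also had the most clusters at the cap on −log10 p, 16 of 23 in replicate 1 and 9 of 18 in replicate 2.

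TMSB10, which encodes thymosin beta 10, was the only gene with every cluster enriched, 7 of 7 in replicate 1 and 3 of 3 in replicate 2. They lay from 85133546 to 85133709 in the window at chromosome 2, 85132700 to 85133900, plus strand. Log2 folds ran only from 4.05 to 4.33 in replicate 1 and from 3.98 to 4.64 in replicate 2. The 6 series-wide regions repeat this block in pieces, and the highest by its lower replicate, 85133559 to 85133597, had 4.33 and 4.64, a mean of 4.48 ± 0.22 (SD, n = 2). The replicate 2 value came from a broader cluster, 85133546 to 85133604, which also stood behind neighbouring regions. The 5′ part of the window had no cluster in either list.

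Ordered by the median log2 fold of its clusters, averaged over both replicates, TMSB10 came first with 4.26 ± 0.12, followed by PFN1 with 3.55 ± 0.18 and CFL1 with 3.50 ± 0.50 (SD, n = 2 for all genes). TUBB4B had 2.84 ± 0.43 and TUBA1A 2.64 ± 0.39. TUBA1B had 2.30 ± 0.02, ACTB 2.20 ± 0.17, ACTG1 2.15 ± 0.45 and TUBA1C 2.09 ± 0.03. The replicate values of neighbours in this order overlapped at all but 2 steps. Those of TMSB10, 4.18 and 4.35, were clear of those of PFN1. Those of TUBA1A, 2.37 and 2.92, lay just above those of TUBA1B, 2.28 and 2.31, a step smaller than the SD of TUBA1A. Below TMSB10, which was first in each of the 4 orders computed, the order also rested on which clusters were counted. With clusters past a −log10 p of 3 alone, TUBA1C had 2.86 and stood next below CFL1, and with clusters weighted by width, TUBA1A had 3.52 and stood next below PFN1, with CFL1 after it at 3.32. With clusters of at least 20 bases, CFL1 had 3.62 and PFN1 3.43. A fold over input says how much of an mRNA was recovered relative to input and is not a level of RNA.

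**Figure D3:**
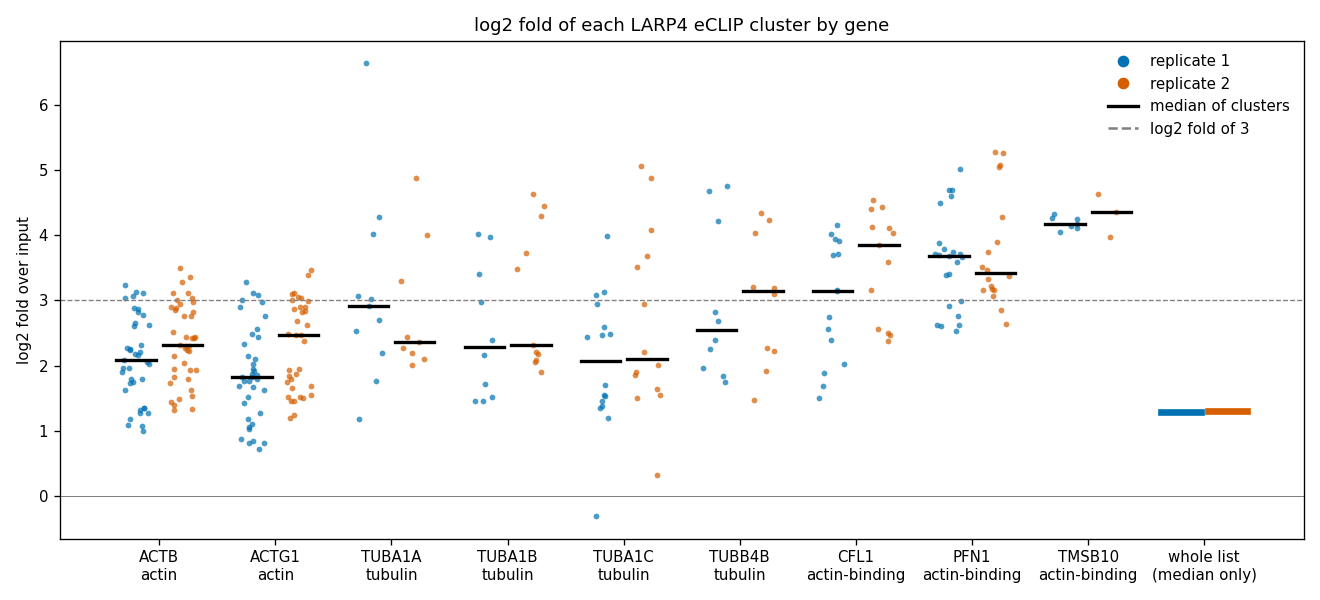
Each point is the log2 fold over input (y axis) of 1 cluster, by gene (x axis), in replicate 1 (blue) and replicate 2 (orange), with black lines at the median. Coloured lines at the right are the medians of the whole lists, 1.28 and 1.30; all points of TMSB10 and no point of ACTB or ACTG1 lie above a log2 fold of 3.9.

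The slope along the genes held in both replicates. Across the clusters of a gene, Spearman's rho of log2 fold with position towards the 3′ edge was between 0.60 and 0.99 in the 8 genes other than TMSB10, over 9 to 41 clusters. TMSB10 had −0.43 over 7 clusters and −0.50 over 3. Neighbouring clusters share fragments and touch each other, so these coefficients are descriptions. In ACTB the mean log2 fold was 2.42 and 2.64 on the 3′ side of the window's midpoint, and 1.39 and 1.82 on the 5′ side. In ACTG1 the values were 2.25 and 2.82 on the 3′ side, and 1.25 and 1.61 on the 5′ side. Enriched clusters lay on the 3′ side of the midpoint in 50 of 54 cases in replicate 1 and 55 of 61 in replicate 2, and the 4 and 6 exceptions were all in PFN1. Of the other clusters, 77 of 115 and 59 of 93 also lay on that side, and TUBA1C, CFL1 and TMSB10 had no cluster on the 5′ side.

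The position of enriched clusters, from 0 at the 5′ edge to 1 at the 3′ edge, was further 3′ than that of other clusters by 0.291 in replicate 1 and 0.268 in replicate 2, averaged over the 8 genes with clusters of both kinds. In PFN1 the direction turned in replicate 2, where enriched clusters had a mean position of 0.604 and the 2 others 0.655. In replicate 1 the PFN1 values were 0.667 and 0.291.

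Long stretches of these genes had no cluster in either replicate. There were 19 such stretches of at least 300 bases between clusters, and in 4 of them the clusters on each side ended at the same base in both replicates. They were 860 bases in ACTB (5569295 to 5570154), 373 in ACTG1 (79479387 to 79479759), 1575 in TUBA1B (49523506 to 49525080) and 1854 in CFL1 (65623714 to 65625567). In TUBA1A the stretch of 2141 bases from 49580618 to 49582758 had edges that differed by 1 base between replicates. What the annotation places in these stretches was not analysed here.

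Both replicates placed clusters at much the same sites. A replicate 2 cluster overlapped 155 of the 169 clusters of replicate 1 by at least 1 base, or 91.7%, against 44.8% in the whole list. Both members of the pair were enriched at 48 of the 155, against 6.51% of overlapping clusters in the whole list. Only the replicate 1 cluster was enriched at 5, only the replicate 2 cluster at 20, and at 82 no cluster was. Replicate 2 was higher at 124 of the 155, against 53.9% of overlapping clusters in the whole list, with a median difference, replicate 2 minus replicate 1, of 0.32 against 0.089. The differences ran from −1.76 in TUBA1A to 2.58 in TUBA1C, and the next highest, 1.80, was in CFL1. Several replicate 1 clusters can share a replicate 2 cluster, so these are not independent. Where clusters lie end to end, an overlap of 1 base is easily met. Only 6 intervals had the same edges in both replicates, and with an overlap of at least 50% of both clusters, 35 pairs were enriched in both. In replicate 1, 94.7% of clusters in the windows had a −log10 p of at least 3, against 14.2% of the whole list. The whole-list shares given here were not matched for p. The log2 folds of overlapping clusters had a Pearson's r of 0.88 and a Spearman's rho of 0.89, as a description of clusters that share genes and libraries.

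**Figure D4:**
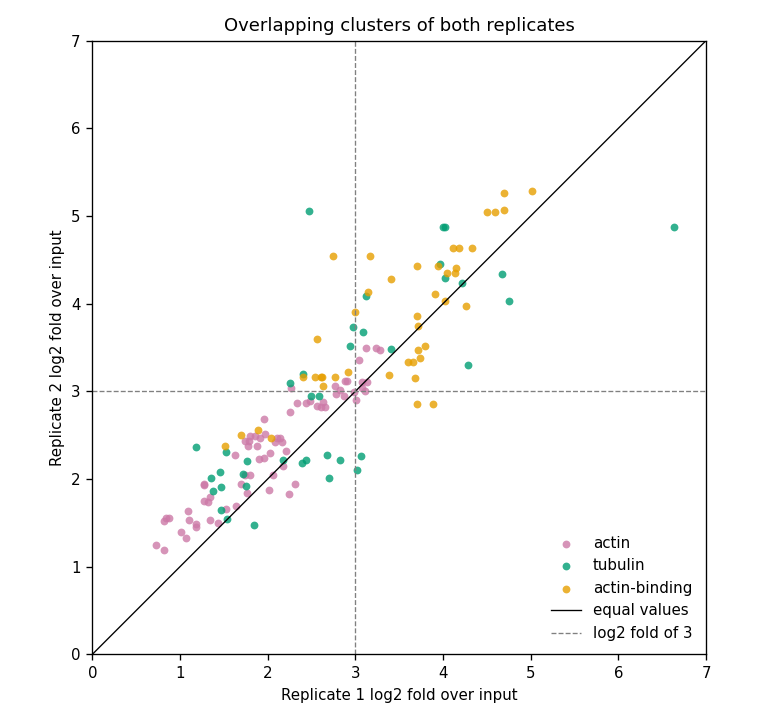
Each point is a replicate 1 cluster with its longest overlapping replicate 2 cluster, with the log2 fold over input of replicate 1 on the x axis and of replicate 2 on the y axis, coloured by family. The solid line marks equal values and the dashed lines a log2 fold of 3; 124 of the 155 points lie above the solid line, and the point farthest right is TUBA1A at 6.64 and 4.88.

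In the series-wide list, the 58 regions covered 2522 bases and had a median log2 fold of 3.76, against 3.65 in the whole list. The overlapping clusters of both replicates were enriched at 49 of the 58 regions. Another 2 regions had an enriched cluster only in replicate 1, and 7 only in replicate 2. No region of the whole series-wide list had a log2 fold below 3, so these counts partly follow from the list itself. The matching share of the whole series-wide list was not computed. The counts therefore do not show whether these genes differ from the other regions. The edges of a region were those of a replicate 1 cluster at 33 regions, of a replicate 2 cluster at 24 and of both at 1. Series-wide regions with −log10 p at the cap numbered 19 of 58, against 5.58% of the whole list. In the replicate lists, 32 of 169 and 25 of 154 clusters were at the cap, or 18.9% and 16.2%, against 0.293% and 0.274%.

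Many of these regions are pieces of a longer stretch. Merging those that touch left 31, and merging those within 50 bases left 19, of which PFN1 had 4, CFL1 had 3 and TUBB4B and TMSB10 had 1 each, with 2 in each of the other genes. The count of regions per gene thus depends on where the authors' clusters were split. On the opposite strand, 6 clusters of replicate 1 and 6 of replicate 2 lay in the windows of CFL1, TUBA1B and PFN1. None of them was enriched, their highest −log10 p was 1.49, and no series-wide region lay there.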

How the data were processed

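LARP4 eCLIP was measured in 2 replicates with 2 size-matched inputs. Titles gave each sample its group and replicate. UMI-tools 1.0.0, cutadapt 1.14, STAR 2.7.6a, SAMtools 1.6 and hg19 are listed, with no role, per the submitters' processing notes. How clusters were called, how depth was scaled, which input was set against which replicate and how reads that fit several places were placed is not given in the sources consulted. The authors deposited, for each interval, the −log10 of a p of enrichment over input, capped at 400. The authors also deposited the log2 fold over input of each interval. The lists carry no header, and the units were inferred from their values. The −log10 p is 0 wherever the fold is negative.

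The members and lists were chosen with earlier results of these data known, so no p-value was computed for them. Starts were converted to 1-based positions. Clusters of both replicates were paired by the longest overlap of at least 1 base on 1 strand, and for each region the replicate value comes from its longest overlapping cluster. All 9 genes are named. In each gene the region whose lower replicate was highest was described in full, and other intervals were picked after their values were seen. Means and SDs are over 2 replicates, which the labels call biological. Other cytoskeleton genes, exons and bound sequences need an hg19 annotation or genome and were not analysed here. The overlap code was tested on simulated data against bedtools 2.31.1. The work used pandas 2.3.3 and numpy 2.4.6 in Python 3.11.15, with figures by matplotlib 3.10.9 and correlations by SciPy 1.17.1. Alternative limits on fold and p, overlaps and position scales were tried.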

Additional observations from a re-analysis of the deposited data

How the results depend on the processing

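Of 68 alternatives run, 51 kept the value within its limits (1.5 times for a count, 1 SD between replicates otherwise), 17 moved it and 0 turned a direction. For results over all 9 genes, 12 alternatives kept the value and 11 moved it, and for single genes 39 kept it and 6 moved it. Except for counts, leaving out a replicate could not move a value, since with 2 replicates the shift is always below 1 SD. These alternatives are among those kept, so the numbers kept overstate how steady the values were. A count could not turn direction. The mean number of enriched clusters per replicate, 57.5, was 22.5 at a log2 fold of at least 4, 109 at 2 and 151.5 at 1, and 54 to 61 with either replicate left out. Of the 58 regions, 26 had a log2 fold of at least 4, and merging, chosen after seeing the data, left 31 (touching) or 19 (within 50 bases). Clusters enriched in both replicates numbered 18 at a log2 fold of at least 4, against 48. The median over the 9 genes of their median log2 fold, 2.503, was 3.13 with clusters weighted by width, 2.84 among clusters past a −log10 p of 3, 2.63 with clusters of at least 20 bases, and 2.47 to 2.54 with either replicate left out. The difference in position, 0.280, was 0.392 on a scale between the outermost clusters and 0.268 to 0.291 with either replicate left out. The cause of these moves was not tested, beyond fewer or more clusters passing a limit. No paired analysis was possible because the inputs enter only as the denominator of the deposited folds. With no reads in the lists, no counting error of a single fold could be given.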
